A study of Mus musculus with 40 samples.

Results

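The comparison is of 4T1 cells grown for a day on collagen I with 4T1 cells grown on bare tissue culture polystyrene, with no T cells in either well. 4T1 is a mammary carcinoma line from a BALB/c mouse. The libraries were chosen by their labels alone: every library labelled as collagen I and carcinoma cells only (4 libraries, experiments 2 to 5), and every library labelled as uncoated plastic and carcinoma cells only (5 libraries, experiments 1 to 5), which makes 9 of the 40 libraries of the series. Experiments 2 to 5 hold both substrates and give 4 pairs of wells. Experiment 1 holds no collagen I well.

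Collagen I wells had been coated with the protein at 250 µg/ml, and uncoated wells received buffer. Both substrates were seeded at the same density of carcinoma cells, left overnight, and then kept for 24 h in medium with interleukin 2 at 30 U/mL, which every group of the series received. Cells floating in the medium were pooled with the trypsinised cells before RNA was taken. The other groups used here are 4T1 alone on collagen IV (4 libraries), fibronectin (5) and vitronectin (4), and 4T1 cultured with T cells from C57Bl6 spleens on collagen I (3) and on uncoated plastic (4). 4T1 is 1 cell line, so the experiments repeat the culture and not the tumour, and the coat is a thin layer on stiff plastic.

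Collagen I is the main fibril-forming collagen of connective tissue and of the stroma of breast tumours. Cells hold it through integrins that contain Itgb1, chiefly Itga1 and Itga2 partners, and sense it through the receptor kinases Ddr1 and Ddr2. Carcinoma cells cut fibrillar collagen at their surface with the membrane-anchored metalloproteinase Mmp14, and a second surface protease system, urokinase on its receptor Plaur, turns plasminogen into plasmin. Cholesterol is made by a chain of enzymes whose genes share the transcription factor Srebf2. The factor is cut loose and enters the nucleus when membranes run short of sterol.

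The 4 collagen I libraries held 29.7 to 43.5 M assigned reads and the 5 uncoated libraries 20.5 to 39.7 M, so that a count of 0 allows up to 0.0703 to 0.144 per M in these 9 libraries (3 reads in each library, counting error only). Values are given per M, the authors' normalised read count per M (mega) reads of a scaled library size. Of 19 epithelial carcinoma markers, 18 averaged at least 1 per M on collagen I and 19 on uncoated plastic, with summed levels of 3143 to 4268 per M on collagen I and 3533 to 4420 per M on uncoated plastic. The defining T cell genes Cd3d, Cd3e and Cd3g averaged at most 0.0262 per M in either group. The summed T cell list of 10 genes, 1.84 to 2.32 per M on collagen I and 1.525 to 2.59 per M on uncoated plastic, was mostly Lck. Summed fibroblast markers lay at 5.10 to 9.77 per M on collagen I and 6.67 to 9.78 per M on uncoated plastic, mostly Pdgfra, and Thy1 was at 0 in every uncoated library. Paired libraries went together: the correlation of their deviations from the group means was 0.767, 0.478, 0.404 and 0.775 in experiments 2 to 5. The label descriptions add R2, R3 or nothing to a library's name. This library tag, not explained in the sources used here, differed between the 2 wells of the pair in experiments 2, 3 and 5 and was the same in experiment 4. Substrate and tag are therefore partly confounded, and calls lost with the tag as a further term are named below, as far as the tag was tried on single genes.

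Of 13664 genes tested, 500 (3.66%) differed between collagen I and uncoated plastic at an adjusted p under 0.05, in a limma fit on log2(value + 1) over the 22 libraries of 4T1 alone with the experiment as a block. On collagen I, 293 genes (2.14%) were higher and 207 (1.51%) were lower. The next counts cover the 293 higher genes and the 206 lower genes that were also tested in wells with T cells. Their differences were small, from 0.12 to 0.90 on the log2 scale in size. Of them 11 were higher and 15 lower by at least 0.5, and none reached 1. In 4 of 4 pairs 288 of the 293 were higher and 197 of the 206 were lower. Over all 13664 genes tested, 1990 were higher and 1637 lower in 4 of 4 pairs. The pairs are part of the fit that gave the calls. The values of the collagen I and uncoated libraries did not overlap for 122 of the 293 and 70 of the 206, while over all 13664 genes tested 3.66% had groups that did not overlap. The median difference over all genes tested was 0.0097.

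The number of genes rests on the pairing. Without the experiment as a block 18 genes passed, 16 higher and 2 lower, and all 18 were among the 500. With the library tag as a further term 208 passed, 122 higher and 86 lower, of which 140 were among the 500. All 500 kept their direction. Leaving out 1 library moved the count by over 1.5 times for collagen I replicate 2 (230 genes), replicate 3 (302), replicate 4 (289) and replicate 5 (260), and for uncoated replicate 5 (239). Of the 74 genes named below that passed, 45 passed without each of the 9 libraries in turn, and 9 passed under all 25 alternatives tried: Ddx41, Dgkh, Large2, Mmp14, Rab31, Soat1, St3gal4, Timp2 and Vgll4.

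Genes of the metalloproteinases, their inhibitors and the plasminogen system moved in both directions. Mmp14, the collagen-cutting membrane protease, was higher on collagen I, and so was Timp2, a secreted inhibitor that also bridges Mmp14 to the gelatinase Mmp2. Mmp14 had 214, 183, 213 and 193 per M on collagen I in experiments 2 to 5, against 145, 151, 138, 137 and 133 per M on uncoated plastic in experiments 1 to 5. Every collagen I library lay above every uncoated library, and the log2 difference was 0.51 ± 0.04 (SE; adjusted p 1.09e-06), with 0.49, 0.40, 0.63 and 0.54 in the 4 pairs. Timp2 had 494, 497, 452 and 507 per M on collagen I, against 344, 360.0, 377, 356 and 351 per M on uncoated plastic, again with no overlap (0.44 ± 0.04, adjusted p 1.09e-06). Mmp14 lies on chromosome 14 from 54431598 to 54442456 and Timp2 on chromosome 11 from 118301061 to 118355411 (RefSeq gene spans, GRCm38).

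Of 18 metalloproteinases and inhibitors tested, 3 were higher and 2 lower on collagen I, beside 2.14% higher and 1.51% lower of all genes tested, and the median difference of the 18 was −0.01. The third higher gene was Mmp11, a secreted metalloproteinase of the stromelysin group, at 13.6 to 20.0 per M on collagen I and 9.15 to 15.3 per M on uncoated plastic, which overlap (0.40 ± 0.06, adjusted p 0.00104; higher in 4 of 4 pairs). The lower genes were Timp1, another secreted inhibitor of these proteases, at 39.0 ± 3.40 per M on collagen I and 46.6 ± 5.56 per M on uncoated plastic (SD, n = 4 and 5; log2 difference −0.24 ± 0.05, adjusted p 0.00403), and the gelatinase Mmp9. Mmp9, named after its values were seen, had 351, 195, 289 and 155 per M on collagen I, against 323, 461, 316, 285 and 214 per M on uncoated plastic (−0.41 ± 0.11, adjusted p 0.0367). It was lower in 3 of 4 pairs and level in experiment 4. With the library tag as a term Timp1 no longer passed (adjusted p 0.0811). Mmp3, a stromelysin, missed the threshold although its groups did not overlap, with 21.0 to 29.5 per M on collagen I and 30.0 to 51.2 per M on uncoated plastic (−0.79 ± 0.22, adjusted p 0.0508). It too was named after its values were seen.

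In the plasminogen system 1 of 10 genes tested was higher and 1 lower, beside 2.14% higher and 1.51% lower of all genes tested. Plaur, the urokinase receptor, had 170.1, 142, 134 and 124 per M on collagen I, against 115, 124, 110.3, 96.7 and 86.6 per M on uncoated plastic. Its highest uncoated library fell just under its lowest collagen I library, and each of the 4 pairs gave a difference between 0.36 and 0.51 (0.46 ± 0.05, adjusted p 6.25e-06). Without the experiment as a block Plaur did not pass (adjusted p 0.364). Urokinase itself (Plau) averaged 192 per M on collagen I and 158 per M on uncoated plastic and did not pass (0.24 ± 0.07, adjusted p 0.0701).

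**Figure D1:**
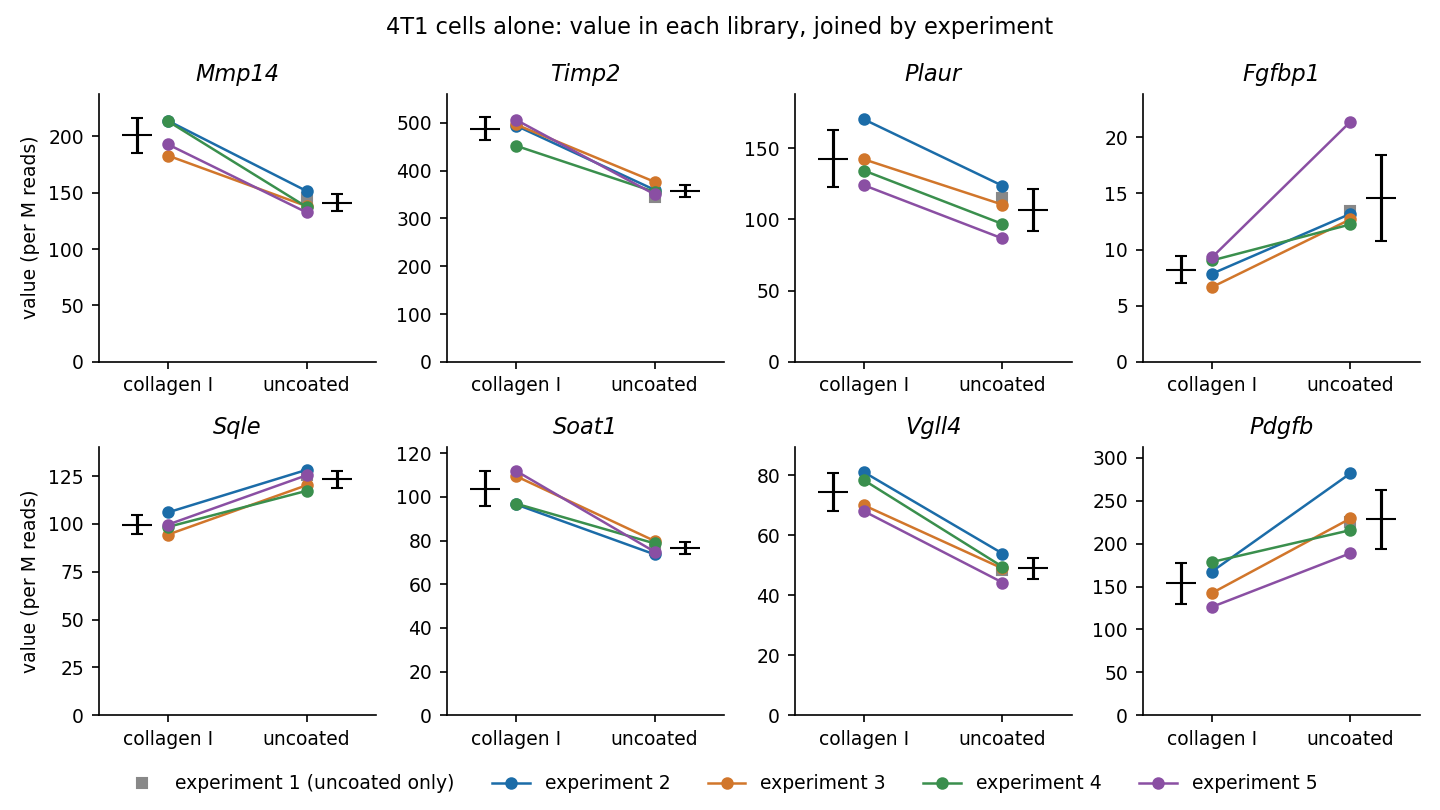
Values per M reads of 8 genes in the 9 libraries of 4T1 alone, collagen I on the left and uncoated plastic on the right of each panel; lines join the wells of an experiment, the square is experiment 1, and the black marks give the mean ± SD of each group (n = 4 and 5). Mmp14, Timp2, Plaur, Soat1 and Vgll4 sit higher and Sqle, Fgfbp1 and Pdgfb lower on collagen I in each of the 4 pairs.

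Of 25 structural matrix genes tested, 5 were lower and none higher, with a median of −0.07 against 0.0097 over all genes tested, of which 1.51% were lower. The count was 2 without collagen I replicate 4, 3 without collagen I replicate 3 or 5 or uncoated replicate 2, 1 with the library tag, and 0 without the block or from all 40 libraries. Spp1 (osteopontin, a secreted ligand of integrins) had 60.5, 38.5, 46.1 and 61.97 per M on collagen I, against 72.1, 76.4, 79.3, 97.4 and 126 per M on uncoated plastic. The groups did not overlap (−0.90 ± 0.22, adjusted p 0.0209), but the call was lost without collagen I replicate 3, 4 or 5 or uncoated replicate 3 (adjusted p 0.0565 to 0.11) and with the library tag (0.179). Col7a1, the collagen of anchoring fibrils, had 166, 81.6, 132 and 63.0 per M on collagen I, against 145, 227, 135, 145 and 113 per M on uncoated plastic, and was lower in 4 of 4 pairs (−0.59 ± 0.11, adjusted p 0.00249; with the tag 0.0775). Also lower were Tnc, an adhesion-modulating glycoprotein (−0.23 ± 0.05, adjusted p 0.0157), and Sparc, a collagen-binding glycoprotein (−0.15 ± 0.04, adjusted p 0.0283; named after its values were seen). Tnc was lost without collagen I replicate 4 or 5 or uncoated replicate 2 (adjusted p 0.0528 to 0.0618) and with the tag (0.191). Col4a1, Col4a2 and Fn1, chains of basement membrane collagen and fibronectin, did not pass (0.03, 0.04 and −0.08).

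Pdgfb, a growth factor for fibroblasts and pericytes, had 168, 142, 179 and 126 per M on collagen I, against 225, 282, 229, 216 and 189 per M on uncoated plastic. No uncoated library reached as low as the highest collagen I library (−0.59 ± 0.06, adjusted p 6.25e-06). Fgfbp1, a carrier that frees fibroblast growth factors from the matrix, had 7.85, 6.66, 9.03 and 9.30 per M on collagen I, against 13.4, 13.2, 12.7, 12.2 and 21.4 per M on uncoated plastic, also without overlap (−0.81 ± 0.12, adjusted p 0.000394). Of the 3 tested genes of the CCN family of matrix-bound signalling proteins, Wisp1 (−0.64 ± 0.10, adjusted p 0.00051) and Ctgf (−0.25 ± 0.05, adjusted p 0.00625) were lower in 4 of 4 pairs, and Cyr61 did not pass (−0.04). The share called lower over all genes tested was 1.51%. Wisp1 stood at 12.3 to 26.9 per M on collagen I and 24.2 to 39.7 per M on uncoated plastic. Clu, a secreted chaperone, had 365, 174, 218 and 117 per M on collagen I, against 283, 603, 294, 287 and 196 per M on uncoated plastic (−0.67 ± 0.08, adjusted p 5.09e-05), with groups that overlap and 4 of 4 pairs lower. Ctgf did not pass with the library tag as a term (adjusted p 0.135), whereas Pdgfb, Fgfbp1, Wisp1 and Clu did (0.000961, 0.0312, 0.0155 and 0.00987). Il18rap, an accessory subunit of a cytokine receptor, was lower as well (19.6 ± 3.57 per M on collagen I and 28.3 ± 5.66 per M on uncoated plastic; −0.56 ± 0.09, adjusted p 0.00087). 2 further decreases, Ywhaq-ps1 (−0.75 ± 0.10) and Gm7850 (−0.56 ± 0.07), are pseudogenes, whose reads may be shared with near-identical copies, and are uncertain.

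None of the 7 tested receptors for collagen passed, beside 3.66% of all genes tested in either direction, and their median was 0.02. Itgb1 averaged 1267 per M on collagen I and 1264 per M on uncoated plastic (0.04 ± 0.04, adjusted p 0.608), Itga2 165 and 176 per M (−0.03 ± 0.06, adjusted p 0.821), Itga1 2.53 and 2.88 per M (−0.20 ± 0.15, adjusted p 0.537), Ddr1 40.6 and 40.4 per M (0.04 ± 0.05, adjusted p 0.706) and Ddr2 155 and 141 per M (0.10 ± 0.05, adjusted p 0.273), the collagen I mean first in each. Itga1, the least abundant of the 5, had the widest error. Among 8 other integrin genes 2 were lower: Itgb3, whose product pairs with Itgav to bind vitronectin and osteopontin, at 3.29 to 7.87 per M on collagen I and 5.84 to 11.3 per M on uncoated plastic (−0.52 ± 0.12, adjusted p 0.0125), and Itgb5, another Itgav partner, at 132 ± 22.1 per M on collagen I and 143 ± 17.04 per M on uncoated plastic (−0.16 ± 0.04, adjusted p 0.0436). The share called lower over all genes tested was 1.51%. The Itgb3 call was lost without collagen I replicate 5 (adjusted p 0.0684) and with the tag (0.0891). The Itgb5 call was lost without any 1 library other than uncoated replicate 4 (adjusted p 0.0639 to 0.16) and with the tag (0.206).

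Of the 20 genes of cholesterol biosynthesis, all tested, 15 were lower on collagen I and none was higher, and each of the 15 was lower in 4 of 4 pairs. Over all 13664 genes tested, 1637 were lower in 4 of 4 pairs, and the pairs are part of the fit that gave the calls. The median difference of the 20 was −0.30, against 0.0097 over all genes tested, of which 1.51% were called lower. By experiment the median of the 20 was −0.29, −0.28, −0.13 and −0.41 in experiments 2 to 5. The experiment with the smallest value, experiment 4, is the one whose wells share a library tag. In wells with T cells experiment 4 again had the smallest median (−0.16), and there its tags differ. Experiments 2 and 5, whose wells with T cells share a tag within the pair, had −0.19 and −0.39. Why experiment 4 gave the smallest value was not tested. In 4T1 alone, with the tag as a term, 4 of the 20 were called (median −0.24), and without the experiment as a block 1 was called (median −0.28). Without 1 library the count was 12 to 16.

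The decreases ran along the pathway. At its entry, Hmgcs1, which makes the precursor HMG-CoA, had 49.0, 49.7, 59.4 and 61.1 per M on collagen I, against 59.4, 65.1, 63.3, 64.9 and 93.1 per M on uncoated plastic (−0.36 ± 0.06, adjusted p 0.0017; 0.0694 with the tag), and its lowest uncoated library, that of experiment 1, lay among the collagen I values. Sqle, the epoxidase that commits squalene to sterols, had 106, 94.4, 98.4 and 99.7 per M on collagen I, against 126, 128, 120.2, 117 and 125 per M on uncoated plastic, without overlap (−0.31 ± 0.04, adjusted p 0.000102). Cyp51, the demethylase of lanosterol, had 61.1, 53.2, 53.8 and 58.1 per M on collagen I, against 72.6, 78.5, 69.3, 64.1 and 85.1 per M on uncoated plastic (−0.38 ± 0.05, adjusted p 0.000152), and Hsd17b7, a later reductase, was lower too (−0.33 ± 0.05, adjusted p 0.000872). Sqle, Cyp51 and Hsd17b7 passed with the tag as a term (adjusted p 0.00806 to 0.0155). Other called genes were Acat2, Mvk, Mvd, Idi1, Fdps, Fdft1, Lss, Msmo1 and Nsdhl, with differences of −0.41 (Fdps) to −0.20 (Mvk). The 5 that did not pass were Pmvk (−0.23), Tm7sf2 (−0.16), Sc5d (−0.13), Dhcr7 (0.02) and Ebp (0.08).

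**Figure D2:**
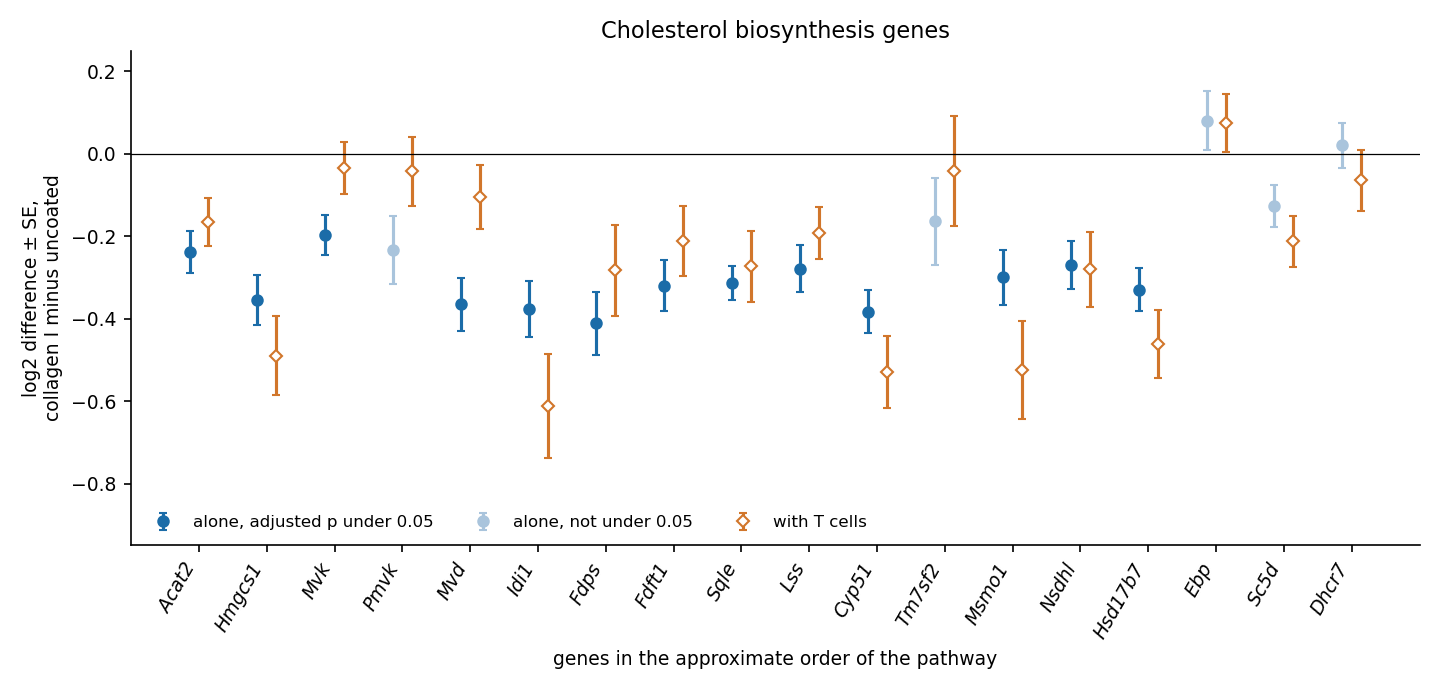
Log2 difference ± SE, collagen I minus uncoated, for 18 of the 20 cholesterol biosynthesis genes in 4T1 alone (circles, dark where the adjusted p was under 0.05) and with T cells (open diamonds). In 4T1 alone 16 of the 18 lie under 0, Fdps lowest at −0.41.

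The windows before the start sites of 3 of these genes are given because the genes moved together. The letters searched for were the sterol regulatory element TCACNCCAC, which Srebf2 binds, and the CCAAT box, both read on either strand and shown in capitals. The Hmgcs1 window holds both, and the Cyp51 and Hsd17b7 windows hold CCAAT boxes and no match to the sterol element. They are RefSeq windows on GRCm38, from 250 bases before to 50 bases after the start, printed along the gene's own strand: Hmgcs1 at chr13:119690101-119690400 (plus strand), Cyp51 at chr5:4104648-4104947 (minus strand) and Hsd17b7 at chr1:169969156-169969455 (minus strand).
Hmgcs1: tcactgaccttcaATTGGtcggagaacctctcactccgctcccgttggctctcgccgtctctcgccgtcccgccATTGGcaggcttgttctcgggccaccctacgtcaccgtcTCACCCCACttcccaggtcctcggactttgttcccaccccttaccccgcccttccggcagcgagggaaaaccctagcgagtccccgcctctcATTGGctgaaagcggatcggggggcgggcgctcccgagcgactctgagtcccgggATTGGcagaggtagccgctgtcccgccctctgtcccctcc
Cyp51: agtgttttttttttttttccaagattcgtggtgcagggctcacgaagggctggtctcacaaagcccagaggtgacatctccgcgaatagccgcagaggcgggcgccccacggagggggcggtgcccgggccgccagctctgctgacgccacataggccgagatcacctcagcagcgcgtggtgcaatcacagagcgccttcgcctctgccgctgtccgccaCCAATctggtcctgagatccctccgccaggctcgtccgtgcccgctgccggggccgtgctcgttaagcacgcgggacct
Hsd17b7: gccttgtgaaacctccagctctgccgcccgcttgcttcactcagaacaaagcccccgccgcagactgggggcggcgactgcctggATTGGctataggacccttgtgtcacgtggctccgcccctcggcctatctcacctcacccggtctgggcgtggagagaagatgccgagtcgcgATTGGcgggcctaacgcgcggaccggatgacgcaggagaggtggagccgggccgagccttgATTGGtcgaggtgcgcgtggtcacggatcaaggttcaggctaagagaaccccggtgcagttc
The sterol element begins 137 bases before the Hmgcs1 start, with 2 CCAAT boxes before it and 2 after it in the window. No capital run overlaps another. The promoter table matched 15 of the 20 genes. At least 1 window held the sterol element in 1 of the 15 (6.67%), against 1.44% of the 27025 genes of the table, and a CCAAT box in 14 of the 15 (93.3%), against 41.1%. Over the 9017 matched genes tested the shares were 1.31% and 43.9%. Among genes called lower they were 3.39% and 51.7% of 118 matched genes. Those 118 include the called cholesterol genes of the promoter table, so they are not a separate set. Among genes called higher the shares were 1.29% and 42.2% of 232. A match is a run of letters and not a bound site, and genes with several windows have more chances to hold one.

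Genes that sense or move sterol were less uniform, with 1 of 13 tested higher and 2 lower. Of all genes tested 2.14% were called higher and 1.51% lower. Soat1, which esterifies cholesterol for storage, rose: it had 96.6, 109.6, 96.9 and 112 per M on collagen I, against 75.9, 73.7, 79.9, 78.7 and 74.9 per M on uncoated plastic, without overlap (0.44 ± 0.04, adjusted p 3.67e-06). Insig1, which retains the Srebf2 precursor in the endoplasmic reticulum and is itself a sterol-responsive gene, had 51.4, 32.4, 48.3 and 50.1 per M on collagen I, against 54.8, 59.2, 50.5, 53.0 and 81.3 per M on uncoated plastic (−0.43 ± 0.10, adjusted p 0.0142). That call was lost without collagen I replicate 3 or 5 or uncoated replicate 3 or 5 (adjusted p 0.0513 to 0.0924) and with the tag (0.209). Srebf2 averaged 148 ± 12.2 per M on collagen I and 165 ± 14.3 per M on uncoated plastic (−0.15 ± 0.04, adjusted p 0.0331), a call lost without any 1 library other than uncoated replicate 4 (adjusted p 0.0539 to 0.125) and with the tag (0.226).

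Of 13 fatty acid synthesis genes 4 were lower, beside 1.51% of all genes tested, with a median of −0.10. The count was 1 with the tag and 0 without the block or from all 40 libraries. The 4 were the desaturases Scd1 (50.2 ± 11.5 per M on collagen I and 64.0 ± 18.03 per M on uncoated plastic; −0.42 ± 0.08, adjusted p 0.00262), Scd2 (548 per M on collagen I and 683 per M on uncoated plastic; −0.40 ± 0.07, adjusted p 0.00249) and Fads2 (88.8 and 105 per M, the collagen I mean first; −0.25 ± 0.05, adjusted p 0.00303), and Acly, the source of acetyl-CoA (−0.14 ± 0.04, adjusted p 0.0491). The Acly call was lost without any 1 library other than uncoated replicate 4 (adjusted p 0.071 to 0.179). With the tag Fads2 passed (adjusted p 0.0472) and Scd1, Scd2 and Acly did not (0.0739, 0.0586 and 0.0996). Fasn, the fatty acid synthase, averaged 923 per M on collagen I and 959 per M on uncoated plastic and did not pass (−0.05 ± 0.06).

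Vgll4, a cofactor that binds the TEAD transcription factors in place of Yap1, had 81.1, 70.0, 78.4 and 68.1 per M on collagen I, against 48.4, 53.9, 48.9, 49.5 and 44.3 per M on uncoated plastic. The groups lay well apart, with pair differences of 0.58, 0.51, 0.65 and 0.61 (0.57 ± 0.05, adjusted p 2.7e-06). Rab31, a small GTPase of endosomal transport, had 191, 185, 171 and 188 per M on collagen I, against 132, 139, 136, 128 and 126 per M on uncoated plastic (0.48 ± 0.05, adjusted p 3.08e-06). St3gal4, a sialyltransferase, had 125, 121, 109 and 123 per M on collagen I, against 88.8, 87.2, 89.6, 79.9 and 80.4 per M on uncoated plastic (0.50 ± 0.05, adjusted p 8.66e-06), and was the only called gene of 10 sialyltransferases tested. The share called higher over all genes tested was 2.14%. The groups did not overlap for Rab31 or for St3gal4. Ddx41, a helicase with roles in splicing and in sensing DNA, had 54.7, 57.0, 57.2 and 60.8 per M on collagen I, against 41.6, 41.2, 46.5, 38.6 and 39.9 per M on uncoated plastic (0.46 ± 0.05, adjusted p 1.54e-05). Dgkh, a diacylglycerol kinase, had 15.2, 12.5, 13.7 and 13.9 per M on collagen I, against 10.9, 8.55, 8.56, 9.72 and 8.87 per M on uncoated plastic (0.55 ± 0.07, adjusted p 0.00013). Vgll4 spans 114860621 to 114970007 on chromosome 6, Rab31 65651726 to 65772752 on chromosome 17 and St3gal4 35046576 to 35116864 on chromosome 9 (RefSeq, GRCm38).

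The largest increase among the named genes was Scarf2, a scavenger-type receptor of the cell surface, with 92.7, 77.6, 108 and 64.0 per M on collagen I, against 66.8, 57.9, 59.7, 59.9 and 36.5 per M on uncoated plastic (0.64 ± 0.09, adjusted p 0.000171). Its groups overlap only through the collagen I library of experiment 5, whose uncoated well was the lowest of its group. Nbl1, a secreted antagonist of bone morphogenetic proteins, stood at 13.2 to 16.7 per M on collagen I and 8.56 to 11.3 per M on uncoated plastic (0.56 ± 0.08, adjusted p 0.000259). Cmtm3, a membrane protein of the MARVEL family, stood at 31.0 to 43.2 per M on collagen I and 23.1 to 28.4 per M on uncoated plastic (0.49 ± 0.06, adjusted p 4.31e-05), Large2, a glycosyltransferase that extends dystroglycan glycans, at 23.3 to 30.8 per M on collagen I and 18.5 to 20.2 per M on uncoated plastic (0.47 ± 0.06, adjusted p 8.02e-05), and Fam102a at 5.95 to 9.75 per M on collagen I and 3.24 to 5.52 per M on uncoated plastic (0.55 ± 0.10, adjusted p 0.0025). The groups did not overlap for these 4 genes, and each of the 5 passed with the library tag as a term (adjusted p 0.000266 to 0.00806).

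Of 19 immediate early and AP-1 genes tested, 5 were higher and none lower, with a median of 0.14, beside 2.14% higher of all genes tested. By experiment the median was 0.30, 0.05, 0.08 and 0.06 in experiments 2 to 5, so that experiment 2 stood above the others. The count was 1 (Fosl1) without collagen I replicate 2, 3 without collagen I replicate 4 or uncoated replicate 5, 0 without the block, 1 from all 40 libraries and 5 with the tag. The 5 called with all 9 libraries were Fosl1, Jun, Klf2, Klf6 and Dusp1. Fosl1, an AP-1 subunit of the FOS family, had 201, 176, 175 and 146 per M on collagen I, against 138, 143, 142, 144 and 108 per M on uncoated plastic, without overlap (0.40 ± 0.08, adjusted p 0.00397). Jun, its partner, had 195, 137, 112 and 79.1 per M on collagen I, against 72.9, 158, 117, 85.4 and 65.1 per M on uncoated plastic (0.29 ± 0.07, adjusted p 0.0179). Its library of experiment 2 was the highest on each substrate. The same experiment held the highest values of Klf2, Klf6 and Dusp1: Dusp1, a phosphatase of MAP kinases, had 139.5 per M on collagen I and 91.0 per M on uncoated plastic there and 8.06 to 21.4 per M in the other 7 libraries (0.43 ± 0.11, adjusted p 0.0365; named after its values were seen). Jun was lost without collagen I replicate 2 or 4 or uncoated replicate 5 (adjusted p 0.0784 to 0.0893), and Klf2 and Klf6 without collagen I replicate 2 (0.0503 and 0.076), as was Dusp1. Klf6 was lost with the tag (0.092), so the 5 genes called with the tag are not all the same 5. Fos (0.07), Fosb (−0.05), Junb (−0.05) and Egr1 (0.07) did not pass.

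Of 19 target genes of Yap1 and Wwtr1, Myof (0.21 ± 0.05) and Asap1 (0.17 ± 0.04) were higher and Nuak2 (−0.32 ± 0.06) and Ctgf (−0.25 ± 0.05) lower, with a median of 0.05. Cyr61 and Ankrd1, also on that list, did not pass (−0.04 and −0.11). For this list and for the Hippo and TGF-beta lists that follow, the shares over all genes tested were 2.14% higher and 1.51% lower. Myof was lost without collagen I replicate 2 or 5 or uncoated replicate 5 (adjusted p 0.0544 to 0.073), and Asap1 without collagen I replicate 2, 4 or 5 or uncoated replicate 2, 3 or 5 (0.0618 to 0.135). With the tag Myof, Asap1, Nuak2 and Ctgf were lost (adjusted p 0.172, 0.253, 0.0814 and 0.135). In the Hippo list Vgll4 was the only one of 18 called higher, and Tead2, a TEAD factor, was called lower (−0.16 ± 0.04, adjusted p 0.0195), a call lost without collagen I replicate 2 or 3 or uncoated replicate 2, 3 or 5 (0.05 to 0.0895) and with the tag (0.151). Of 22 TGF-beta genes, the receptor Tgfbr2 (0.23 ± 0.04, adjusted p 0.00277) and the latent TGF-beta binding protein Ltbp2 (0.22 ± 0.06, adjusted p 0.0291) were higher, and the ligand Tgfb3 (−0.26 ± 0.05, adjusted p 0.00331) and the target Bhlhe40 (−0.30 ± 0.06, adjusted p 0.00988) lower. Ltbp2 was lost without collagen I replicate 2, 4 or 5 or uncoated replicate 2, 3 or 5 (0.06 to 0.142), and Bhlhe40 without collagen I replicate 3 (0.0542). With the tag none of these 4 TGF-beta genes passed: the adjusted p was 0.0907 for Tgfbr2, 0.103 for Ltbp2, 0.0907 for Tgfb3 and 0.207 for Bhlhe40. Tnfaip3, a brake on NF-kB signalling, had 220, 212, 216 and 218 per M on collagen I, against 162, 192, 194, 189 and 178 per M on uncoated plastic (0.20 ± 0.03, adjusted p 0.00126), and Bnip3, a mitochondrial mitophagy receptor of the hypoxia list, was higher by 0.34 ± 0.05 (adjusted p 0.000872).

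Of 19 epithelial genes 3 passed, all lower, with a median of −0.09, beside 1.51% lower of all genes tested. The count was 2 without collagen I replicate 3, 4 or 5, 2 with the tag, and 0 without the block or from all 40 libraries. Krt14, a basal keratin, averaged 126 ± 51.5 per M on collagen I and 166 ± 54.6 per M on uncoated plastic (−0.37 ± 0.06, adjusted p 0.00135), and Cdh1, E-cadherin, had 493, 401, 373 and 361 per M on collagen I, against 539, 527, 480, 431 and 407 per M on uncoated plastic (−0.19 ± 0.05, adjusted p 0.0176). Cdh1 was lost without collagen I replicate 3, 4 or 5 (adjusted p 0.0586 to 0.0759) and with the tag (0.0651). Of the 10 genes of the epithelial to mesenchymal list the other call was Zeb2, a repressor of Cdh1, at 38.4 ± 3.21 per M on collagen I and 31.4 ± 2.71 per M on uncoated plastic (0.25 ± 0.07, adjusted p 0.0449), a call lost without any of the 4 collagen I libraries or uncoated replicate 2, 3 or 5 (0.0503 to 0.2) and with the tag (0.396).

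No gene passed in the lists of mitosis (19 tested), DNA replication (18), cytosolic ribosomal proteins (24), NRF2 targets (18) or lysosome (22), whose medians were 0.01, −0.03, 0.01, −0.05 and 0.08. 1 of 22 interferon response genes passed, Irf1 (−0.18 ± 0.05, adjusted p 0.045), and 1 of 15 genes of MHC class I presentation, Psmb10, an immunoproteasome subunit (−0.29 ± 0.08, adjusted p 0.0453). Of all genes tested 3.66% passed in either direction. The Irf1 call was lost without 1 library for each of them other than collagen I replicate 4 and uncoated replicate 4 (adjusted p 0.0555 to 0.172), and so was that of Psmb10 (0.0645 to 0.201). Both were lost with the tag (0.5 for Irf1 and 0.263 for Psmb10). By experiment the interferon median was 0.07, −0.04, 0.40 and −0.11, so experiment 4 stood apart on this list.

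**Figure D3:**
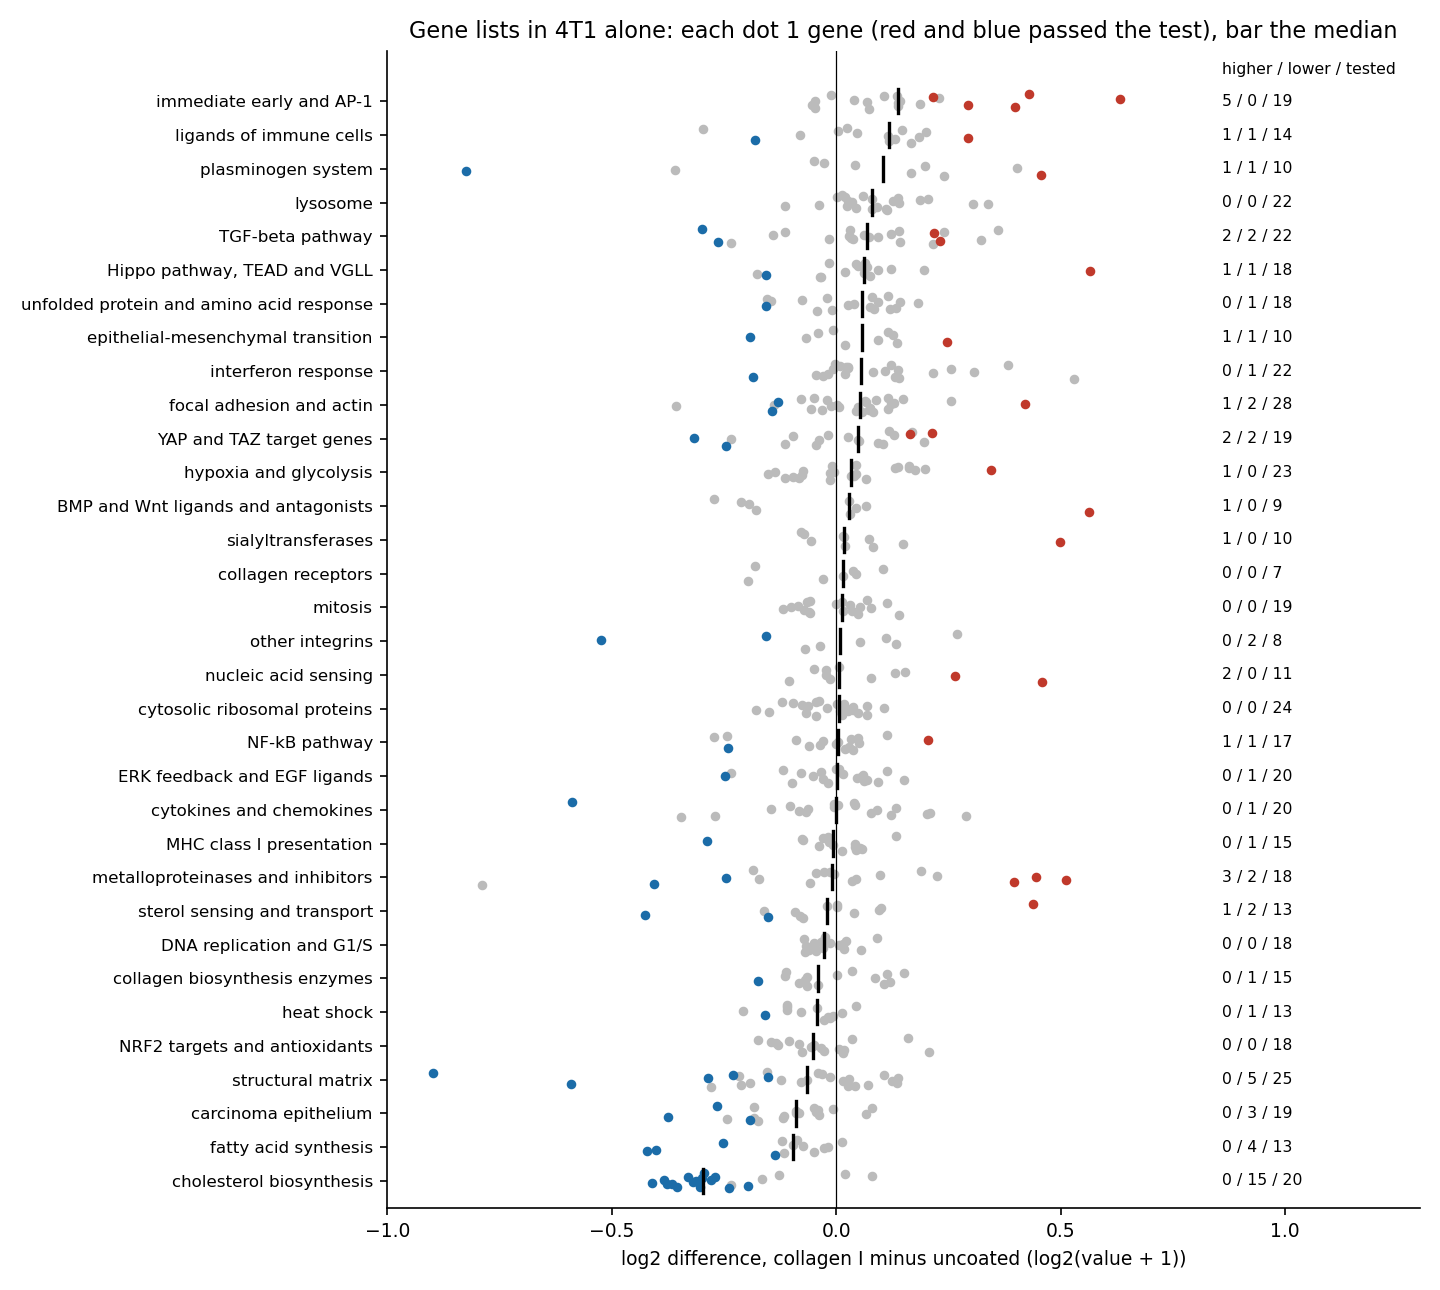
Log2 difference, collagen I minus uncoated, in 4T1 alone for every tested member of the lists with at least 5 tested genes; red and blue dots passed the test upwards and downwards, bars are list medians, and the numbers give genes higher, lower and tested. Cholesterol biosynthesis (0 higher, 15 lower of 20) lies at the low end and immediate early genes (5 higher, 0 lower of 19) at the high end.

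The other protein coats allow the collagen I wells to be set against coated wells as well as bare plastic. Against the mean of collagen IV, fibronectin and vitronectin, 821 of 13664 genes (6.01%) differed on collagen I, 588 higher (4.3%) and 233 lower (1.71%). Without collagen I replicate 2, 4 or 5 the count was 391, 499 or 433. This comparison shares the collagen I libraries with the one above, so its values are given beside the others and not as a repeat. Mmp14 was 0.51 above uncoated plastic on collagen I, and the differences for collagen IV (−0.08), fibronectin (−0.01) and vitronectin (−0.02) did not pass. Against each of those coats Mmp14 was higher on collagen I, by 0.59, 0.52 and 0.54. Timp2, Vgll4, Rab31, Soat1, Ddx41 and Plaur were likewise higher on collagen I than on each other coat (by 0.29 to 0.65 in these 6 genes; adjusted p at most 0.000606). St3gal4 differed from uncoated plastic in both directions, higher on collagen I (0.50) and lower on collagen IV (−0.29 ± 0.05, adjusted p 0.00528).

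Wisp1 differed by −0.64 for collagen I, 0.37 for collagen IV and 0.37 for fibronectin, each against uncoated plastic. For vitronectin its difference was −0.23 and did not pass (adjusted p 0.479). Masp1, a protease of the complement lectin pathway, was lower on collagen I by 0.41 and higher on collagen IV by 0.43 and on fibronectin by 0.24. It did not pass on vitronectin (0.08). Against uncoated plastic Hmgcs1 differed by −0.36 for collagen I, −0.03 for collagen IV, 0.24 for fibronectin (adjusted p 0.0315) and 0.11 for vitronectin, and 16 of the 20 genes of the list were lower on collagen I than on the mean of the other coats, with none higher (median −0.31). Other decreases were shared with another coat. Spp1 was also lower on collagen IV (−0.97 ± 0.22, adjusted p 0.0181) (collagen I −0.90), and Il18rap was also lower on collagen IV (−0.40) and fibronectin (−0.35). Collagen I and the mean of the other coats did not differ past the threshold for Spp1 (−0.54, adjusted p 0.0878) or Il18rap (−0.21, adjusted p 0.104). The same held for Mmp9 (−0.10, adjusted p 0.587) and for Mmp3 (−0.00098, adjusted p 0.999), which had also missed the threshold against uncoated plastic. Clu (−0.41, adjusted p 0.00964), Itgb3 (−0.48, 0.0307) and Tnc (−0.21, 0.0424) were also lower on collagen IV than on uncoated plastic. Tnc was lower on fibronectin too (−0.19, adjusted p 0.0498). Against the mean of the other coats Clu (−0.41, adjusted p 0.000662) and Itgb3 (−0.40, 0.0125) passed and Tnc did not (−0.10, 0.192).

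**Figure D4:**
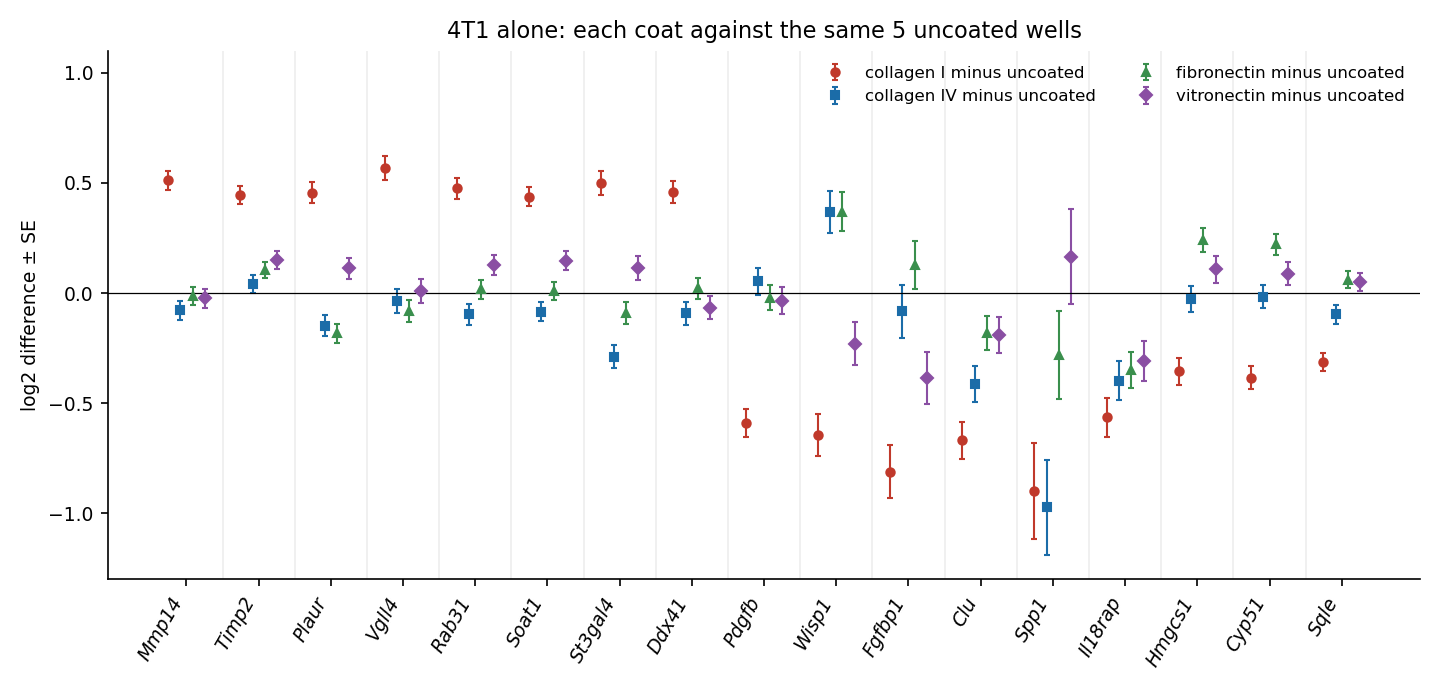
Log2 difference ± SE of each coat against the 5 uncoated libraries of 4T1 alone for 17 named genes, which share those uncoated libraries. From Mmp14 to Ddx41 the collagen I points stand above the other coats, and for Pdgfb and the cholesterol genes Hmgcs1, Cyp51 and Sqle below them; for Spp1 collagen I and collagen IV lie together.

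In wells with T cells the same substrates were compared in other libraries of the same experiments (3 on collagen I, 4 on uncoated plastic). 14 of 14334 genes passed (0.0977%), 5 higher (0.0349%) and 9 lower (0.0628%) on collagen I. The count was 1 without collagen I replicate 2 or 5, and 4, 9 and 7 without uncoated replicates 2, 4 and 5. In these bulk samples fewer carcinoma cells and less RNA per carcinoma cell cannot be told apart, and the libraries hold T cell RNA. The lower genes included Akap12, Epha1, Il18rap, Pdgfb, Col7a1, Cyp51 and Col12a1, and the higher ones were Ddx41, Samd4b, Plekhh3, Git1 and Large2. Akap12, Epha1, Col12a1, Samd4b, Plekhh3 and Git1 were named after their values were seen. Of the 14, 13 had also passed in 4T1 alone, in the same direction, and the other was Col12a1 (−0.62 with T cells, −0.19 alone, adjusted p 0.368 alone). Pdgfb had 159.8, 111 and 106 per M on collagen I with T cells in experiments 2, 4 and 5, against 208, 253, 143 and 171 per M on uncoated plastic with T cells in experiments 1, 2, 4 and 5, with groups that overlap (−0.59 ± 0.08, adjusted p 0.0111). Ddx41 had 51.4, 60.2 and 56.7 per M on collagen I with T cells, against 39.1, 34.7, 37.4 and 40.9 per M on uncoated plastic with T cells, without overlap (0.57 ± 0.06, adjusted p 0.00147).

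Of the 293 genes higher on collagen I alone, 266 (90.8%) were also higher with T cells, against 3981 of 7319 (54.4%) of all genes higher alone whatever their p. Of the 206 lower genes with a value in both, 156 (75.7%) were also lower with T cells, against 3353 of 6211 (54.0%). The 2 conditions share no library but come from the same experiments. The median difference was 0.25 alone and 0.16 with T cells for the higher genes, and −0.25 alone and −0.11 with T cells for the lower genes. Mmp14 (0.50 ± 0.10, adjusted p 0.0875), Timp2 (0.44 ± 0.08, adjusted p 0.0584) and Vgll4 (0.51 ± 0.09, adjusted p 0.0517) had nearly the same difference with T cells as alone but did not pass there. In the wells with T cells the 2 libraries of a pair carry the same library tag in experiments 2 and 5. In those 2 experiments Mmp14 differed by 0.68 and 0.38 and Pdgfb by −0.66 and −0.69.

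The cholesterol genes had a median of −0.23 with T cells, with 19 of 20 under 0, and −0.19, −0.16 and −0.39 in experiments 2, 4 and 5. Cyp51 had 53.2, 40.7 and 47.8 per M on collagen I with T cells, against 60.3, 79.8, 51.3 and 78.5 per M on uncoated plastic with T cells, with groups that overlap (−0.53 ± 0.09, adjusted p 0.0434). Dgkh was the named gene whose difference shrank most, 0.55 alone and 0.05 ± 0.11 with T cells, at 12.2 to 14.3 per M on collagen I with T cells and 10.5 to 15.0 per M on uncoated plastic with T cells. The difference between the 2 conditions did not pass for Dgkh (−0.50, adjusted p 0.287) or for any of 14571 genes with limma. At an unadjusted p under 0.05 there were 1394, edgeR on the recovered reads also called 0, and DESeq2 called 33.

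**Figure D5:**
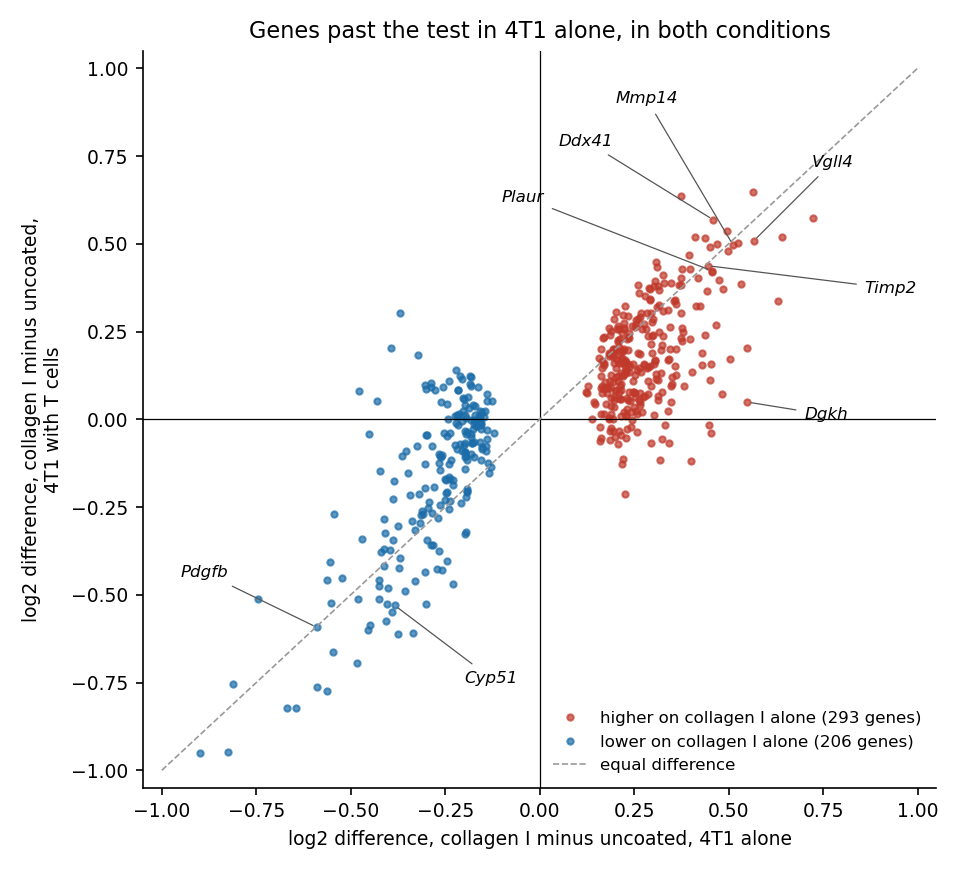
Log2 difference, collagen I minus uncoated, in 4T1 alone (horizontal) and in 4T1 with T cells (vertical) for the 499 genes called alone that have a value in both; the dashed line marks equal differences. Most of the 293 higher genes lie above 0 and most of the 206 lower genes below 0 in both, and Dgkh lies near 0 with T cells.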

How the data were processed

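RNA of 40 libraries was sequenced as single-end reads of 75 bases. The authors aligned reads with STAR 2.6 to mm10, counted them per gene with featureCounts and used edgeR 3.31.7, per the submitters' processing notes. The deposited values are a normalised signal, read counts per M (mega) reads of a scaled library size. Their low values were whole multiples of the value of 1 read (100% within 0.01 of a whole number), so reads per library were recovered. Of 21349 table lines 1 repeat was removed, and 19 symbols had been turned into dates.

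Differences were computed with limma 3.58.1 (R 4.3.3) on log2(value + 1), so the changes of low genes are understated, for genes with at least 1 per M in at least 4 libraries, with Benjamini-Hochberg adjustment over all genes tested and the experiment as a block. The fit pools the spread of all 22 libraries of 4T1 alone, so a fitted difference is not the plain mean of the 4 pairs. Replicate numbers name the experiment in the labels, and same-numbered libraries deviated together (correlations 0.767, 0.478, 0.404 and 0.775). The count test on the recovered reads (edgeR 4.0.16, quasi-likelihood) called 527 genes, and DESeq2 1.42.0 called 709. The limma and edgeR fits with the block were tried on simulated counts. DESeq2, the library tag term, the other alternatives and the recovery of reads were not. Where nothing shows separate cultures, p-values cover only the spread between these libraries.

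The members and gene lists were chosen with earlier results of these data known. Genes were named by a rule: the 12 largest increases and 10 largest decreases among called genes with 4 of 4 pairs in 1 direction and a mean of at least 5 per M, the 5 smallest adjusted p, up to 4 called members of each list, and genes picked by role or from an earlier account of these data. Some named genes are not reported here. Genes outside the rule are marked in the text or are given as members of a list.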

Additional observations from a re-analysis of the deposited data

Results flagged for a closer look

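In 10 of the 160 groups of values examined for the named genes, a library lay far from the others of its group. Chance alone flags about 1 group in 20. In the uncoated group, replicate 5 stood apart for Scarf2 (36.5 per M, low), Fgfbp1 (21.4 per M, high), Scd1 (95.4 per M, high), Scd2 (1037 per M, high), Hmgcs1 (93.1 per M, high) and Fosl1 (108 per M, low), and replicate 2 for Itgb3 (11.3 per M, high) and Bhlhe40 (244 per M, high). In the collagen I group, replicate 3 stood apart for Insig1 (32.4 per M, low) and Ifih1 (13.99 per M), a sensor of viral RNA.

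Ddr2, a collagen receptor kinase, differed in direction between the conditions: every pair with T cells was lower on collagen I (−0.037) and every pair of 4T1 alone was higher (0.10). The interaction did not pass (limma, adjusted p 0.661).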

How the results depend on the processing

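The count of 500 genes was 18 without the replicate block, 891 from the libraries of the 2 groups alone, 100 from all 40 libraries and 208 with the library tag, which was added after the data were seen. Leaving out a replicate or a library gave 143 to 474. Against the other coats the count of 821 was 84 without the block and 278 from all 40 libraries, and 340 to 839 with a replicate or library left out. With T cells the count of 14 was 0 without the block (limma; 168 genes at an unadjusted p under 0.05), 24 from the 2 groups alone, 45 from all 40 libraries, 27 with at least 5 per M, 140 with DESeq2 and 6 with the tag, and 0 to 79 with 1 left out. The difference between conditions, 0 in limma, was 71 from the groups compared alone and 33 with DESeq2. Of the 20 cholesterol genes 15 were called lower, against 1 without the block, 9 from all 40 libraries and 4 with the tag. The cause was not tested.

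No called gene reversed. Among collagen receptors that did not pass, Itga2 ran from −0.067 to 0.015 with a replicate or library left out (above 0 without replicate 4 or collagen I replicate 3), Ddr1 from −0.012 to 0.064 (under 0 without replicate 5 or collagen I replicate 5), and Itgb1 was −0.021 with the tag. Of the 74 named genes that passed, 10 passed without the block, 40 with the tag, 73 with edgeR and 74 with DESeq2. The groups hold only 4 and 5 libraries. Between libraries of a group the chi-square per degree of freedom was 9.76 to 48.4, so they differed by more than counting error. That spread includes the differences between experiments, and the effect of depth was not tested.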
